A study of Mus musculus with 2 samples.

Results

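The genes described here are 44 members of the bone morphogenetic protein (BMP) and transforming growth factor beta (TGF-beta) pathway, chosen by name as ligands, receptors, extracellular antagonists, Smads and targets. All 44 symbols matched a row of the gene tables, out of 43346 Ensembl genes measured. The tissue was the intestine of 2 B6NCrl mice of age 0 days, pups of the same pregnancy whose sex was not collected, with total RNA longer than 200 nt read in 1 library per pup from 10 ng of RNA. Both libraries belong to 1 group with no treatment named, so the values show what the newborn gut expresses and how far these pups differ. The labels do not say which segments of the intestine were taken.

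In this pathway, secreted dimers bring together type I and type II serine/threonine kinase receptors, and the type I receptor phosphorylates receptor-regulated Smads, which enter the nucleus with Smad4. BMP receptors act through Smad1, Smad5 and Smad9, and TGF-beta, activin and nodal receptors through Smad2 and Smad3. In the gut, BMP signals from the mesenchyme restrain epithelial proliferation along the villus, antagonists made near the muscle layer protect the stem cell compartment, and TGF-beta acts on stroma, vessels and immune cells.

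Depth and tissue were checked before the members were read. Pup 1 had 44568095 expected counts over all genes and pup 2 had 34797451; an expected count is an estimate and may be a fraction where reads were shared. Levels are given in TPM, which is scaled to transcript length and library, so that genes of a library can be compared, and ± is the SD over the 2 pups. With 2 values the SD itself is uncertain. No p-values are printed because flipping the signs of 2 values exactly gives at best 0.5. All markers of epithelium (10 of 10), smooth muscle (6 of 6), fibroblasts and subepithelial cells (8 of 8) and blood endothelium (8 of 8) reached 1 TPM in each pup. Summed markers of stomach were 60.4 TPM in pup 1 and 296 TPM in pup 2, and those of colon and hindgut position were 18.7 and 2.55 TPM, so the libraries were not alike in these markers. Summed markers of duodenum and jejunum (952 and 1023 TPM) and of ileum (489 and 503 TPM) were closer. These sums hide opposite shifts of single genes. Of the 4 ileum genes, Slc10a2 was over 2-fold higher in pup 1 (1.31 and 0.310 TPM). Fabp6 was also higher in pup 1 (102 and 71.0 TPM), Slc51b was higher in pup 2 (262 and 308 TPM), and Nts was close (123 and 124 TPM). Of the duodenum and jejunum genes, Pdx1 was higher in pup 2 (2.84 and 4.00 TPM) and Sct in pup 1 (294 and 277 TPM). Smooth muscle markers summed to 3986 and 4173 TPM, fibroblast and subepithelial markers to 855 and 884 TPM, and endothelial markers to 178 and 180.2 TPM. In whole tissue, a lower level from fewer cells of a type and from less RNA per cell cannot be told apart.

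Most of the pathway was expressed at birth. Of the 44 members, 37 (84.1%) stood at 1 TPM or more in both pups, against 59.1% of 21474 protein-coding genes and 32% of all genes. The median member was at 4.85 TPM in pup 1 and 5.36 TPM in pup 2, and the median protein-coding gene at 2.89 and 3.08 TPM. All 7 antagonists and both targets passed 1 TPM, as did 12 of 13 receptors, 7 of 8 Smads and 9 of 14 ligands. The 7 members under 1 TPM were Bmp6, Bmp8b, Bmp10, Inhbb, Nodal, Bmpr1b and Smad9. The plot of levels by class shows that pups lay close together for nearly every member, while members of the same class spread over a far wider range.

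**Figure D1:**
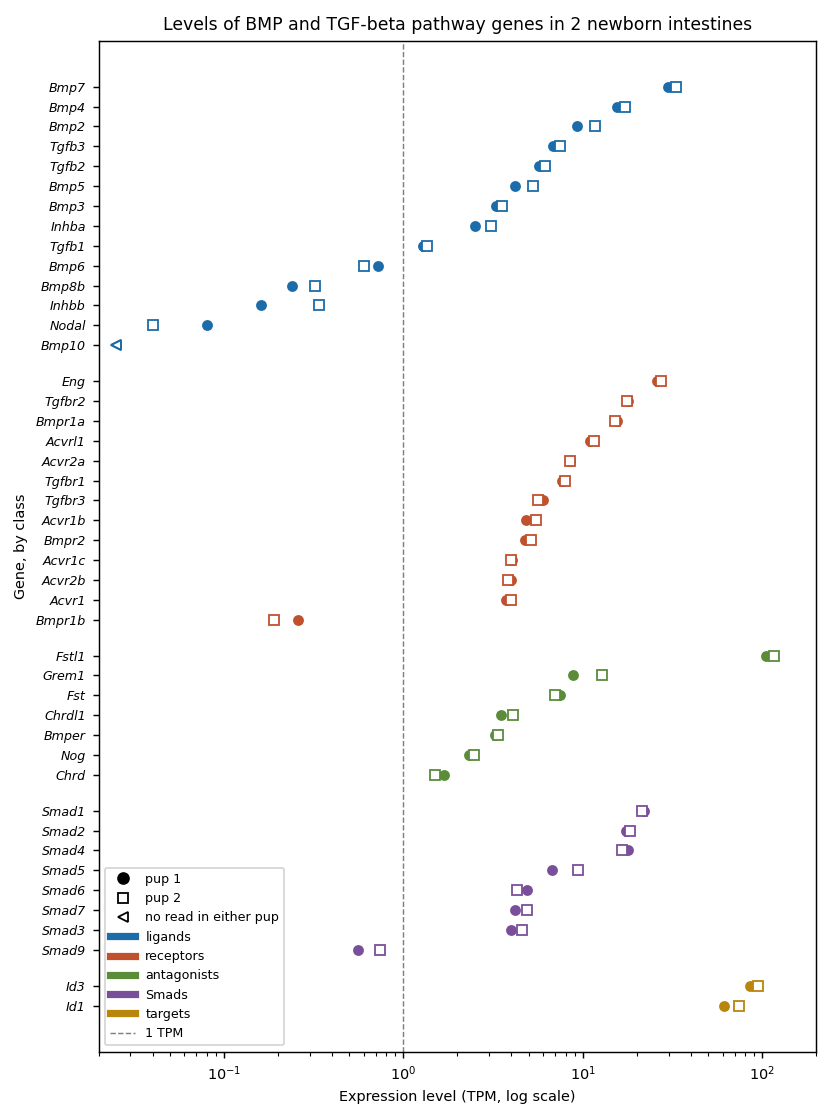
Level of each of the 44 genes in TPM (log axis) in pup 1 (filled circles) and pup 2 (open squares), ordered by mean level within each class; the dashed line marks 1 TPM and the triangle a gene with no read. Fstl1, Id3 and Id1 stand highest, and Bmp10 has no read in either pup.

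**Figure D2:**
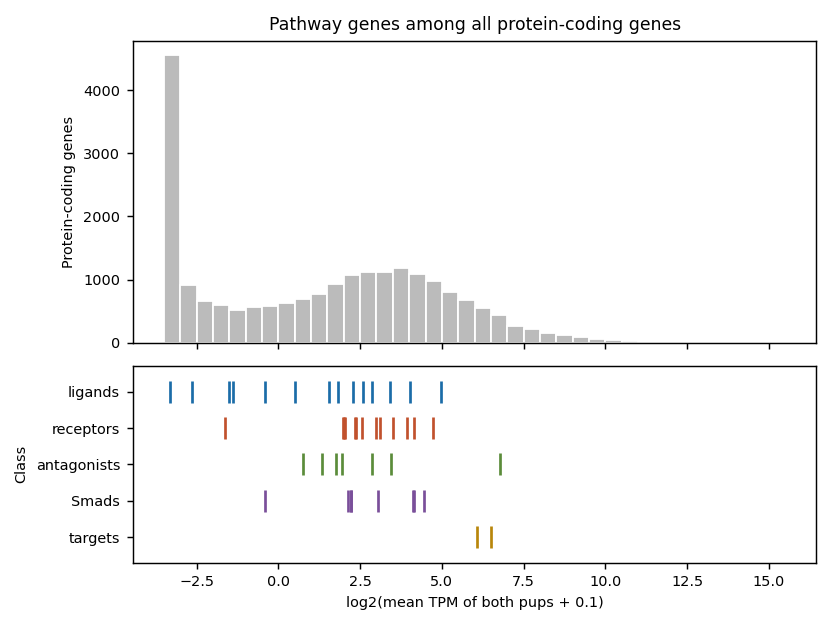
Number of protein-coding genes (top) by log2 of the mean TPM of both pups plus 0.1, and the same value of each pathway gene as a tick, by class (bottom). Both targets and Fstl1 lie in the upper tail, and ligands span the widest range, from Bmp10 at 0 to Bmp7 at 31.3 TPM.

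Ligands were led by BMPs. Bmp7 (ENSMUSG00000008999.7, chromosome 2, 172868012 to 172940321, GRCm38), known from kidney and eye development, stood at 29.8 TPM in pup 1 and 32.8 TPM in pup 2. Bmp4, a mesenchymal BMP of the villus core, stood at 15.5 and 17.1 TPM, and its close relative Bmp2 at 9.31 and 11.7 TPM. Bmp7 exceeded Bmp4 by 1.91-fold (log2 0.93 ± 0.00067), and Bmp4 exceeded Bmp2 by 1.55-fold (log2 of Bmp2 over Bmp4 -0.64 ± 0.14). The second of these orders belongs to the per-length scale, since without length normalisation the log2 value was 0.31.

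The other BMPs were lower. Bmp5, of the same subgroup as Bmp7, was at 4.21 and 5.25 TPM, lower than Bmp4 by 3.42-fold (log2 -1.77 ± 0.12). An antisense gene, Gm26903, overlaps 46.7% of the exonic bases of Bmp5, and it took 8.10 and 9.10 expected counts against 564 and 539 for Bmp5. No source used here says whether the counting used strand, and without it the reads of both genes cannot be told apart. Bmp3, a BMP that opposes other BMPs, was at 3.28 and 3.54 TPM. Bmp6, abundant in liver endothelium, was at 0.720 and 0.600 TPM, and Bmp8b at 0.240 and 0.320 TPM, with reads shared with other genes. On the opposite strand Txndc5, with 8375 and 5808 counts, overlaps 5.74% of the exonic bases of Bmp6, which had 60 and 38 counts. Ppie (963 and 728 counts) and Gm17244 (34.4 and 31.7 counts) overlap 3.43% and 8.74% of those of Bmp8b, which had 24.72 and 25.15 counts. The doubt about strand thus weighs more on these low values than on Bmp5. Bmp10, a ligand of the embryonic heart, had no read in either library, which allows up to 0.0685 TPM in pup 1 and 0.0894 TPM in pup 2 at 3 counts, a limit that covers counting error alone.

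The 3 TGF-beta ligands lay between the leading and the low BMPs. Their median was 5.69 TPM in pup 1 and 6.16 TPM in pup 2, against 3.75 and 4.40 TPM for the 8 BMP ligands. Tgfb3 stood at 6.85 and 7.42 TPM, Tgfb2 at 5.69 and 6.16 TPM, and Tgfb1, the isoform best known from immune cells and platelets, at 1.29 and 1.35 TPM. Tgfb1 was thus 4.24-fold below Tgfb2 (log2 -2.08 ± 0.037) and 5.09-fold below Tgfb3 (log2 -2.35 ± 0.037). Transcripts annotated as coding carried 61.9% and 68.5% of the Tgfb2 level, the rest being retained-intron transcripts; this gene was singled out after its values were seen. On coding transcripts alone Tgfb2 was at 3.52 and 4.22 TPM, still above Tgfb1 as a whole.

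Of the activin and nodal ligands, Inhba, the beta A subunit of activin and inhibin, was at 2.51 and 3.08 TPM. Inhbb, the beta B subunit, was at 0.160 and 0.340 TPM, and Inhba exceeded it by 8.52-fold (log2 3.09 ± 0.34). Nodal, an axis-patterning factor of the early embryo, had 6 and 2 expected counts, or 0.0800 and 0.0400 TPM.

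Summed over their members, the 8 BMP ligands came to 63.1 TPM in pup 1 and 71.4 TPM in pup 2, the 3 TGF-beta ligands to 13.8 and 14.9 TPM, and the 3 activin and nodal ligands to 2.75 and 3.46 TPM. The BMP sum exceeded the TGF-beta sum by 4.67-fold (log2 2.22 ± 0.048) and the activin and nodal sum by 21.8-fold (log2 4.44 ± 0.11). The latter value was 2.32 as a mean over members and 6.89 without the highest member of each class. The order of BMP and TGF-beta holds for the sums and not for the average member: the mean over members of log2(TPM + 0.1), which counts Bmp10 like Bmp7, gave -0.56.

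**Figure D3:**
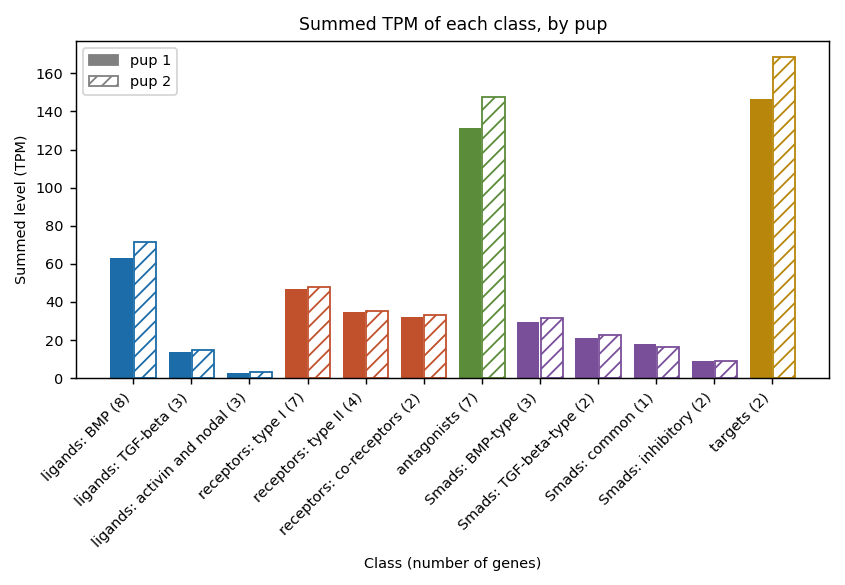
Summed TPM of each class in pup 1 (solid bars) and pup 2 (hatched bars), with the number of genes in brackets; bars start at 0. Targets and antagonists are the tallest, and BMP ligands stand above the other ligands in both pups.

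Receptors were expressed within a narrower range than ligands. Eng, endoglin, a co-receptor of endothelial cells, was highest at 25.9 and 27.4 TPM. Tgfbr2 (ENSMUSG00000032440.8, chromosome 9, 116084293 to 116175360), the type II receptor that binds TGF-beta, stood at 17.8 and 17.5 TPM, and Bmpr1a, the main type I receptor for Bmp2 and Bmp4 in gut, at 15.4 and 15.1 TPM. Acvrl1, an endothelial type I receptor that binds Bmp10, reached 10.9 and 11.5 TPM. Library-scaled counts of these 4 receptors stood at 0.919 to 1.00 times in pup 2 what they were in pup 1.

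Tgfbr2 was divided between isoforms that differ by an alternative coding exon. The longer transcript encodes 592 residues and the shorter 567 residues in the GENCODE M21 annotation. The longer holds exon 2 of 8, which lies on the minus strand of chromosome 9 at 116158271 to 116158345 and adds 75 bases, or 25 residues, to the extracellular part near the amino terminus. The deposited transcript lengths, 4785 and 4710 bases, differ by the same number of bases, although both transcripts have other lengths in M21 (8092 and 3476 bases). Its sequence is shown in capitals, between 30 bases of the flanking coding exons in lower case, as read from the GENCODE M21 transcript.
Tgfbr2 exon: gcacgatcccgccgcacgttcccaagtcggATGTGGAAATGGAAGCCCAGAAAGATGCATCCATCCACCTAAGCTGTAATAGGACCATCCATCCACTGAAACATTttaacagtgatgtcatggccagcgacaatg
The longer form held 48.2% of the level of Tgfbr2 in pup 1 and 46.9% in pup 2, at 8.55 and 8.22 TPM, and the shorter form stood at 9.21 and 9.30 TPM. Both forms were thus made at nearly equal levels in each pup.

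Acvr2b, a type II receptor for activins, also had a pair of coding isoforms, at a lower level. The gene as a whole was at 3.97 and 3.84 TPM. In the M21 annotation its longer form has 536 residues and the shorter 528 residues, the difference being 24 bases at chromosome 9, 119428201 to 119428224, at the start of exon 4 on the plus strand. These are the inserted bases in capitals with 30 flanking bases on either side.
Acvr2b insert: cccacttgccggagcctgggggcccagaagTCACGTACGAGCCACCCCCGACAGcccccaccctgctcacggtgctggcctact
The longer form held 74.2% in pup 1 and 44.1% in pup 2, 59.1% ± 21.3 (SD, n = 2), and Acvr2b was the only 1 of 31 members with several transcripts and a read whose leading transcript differed between pups. The estimates rest on 229 and 171 expected counts over the whole gene. The form with more residues has 1696 bases as deposited (2093 in M21), fewer than the 1729 of the other form. The transcripts as counted thus also differ outside the insert. The change in share between pups cannot be assigned to the insert alone. Acvr2b is below the 5 TPM set for describing isoforms and was singled out after its values were seen.

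**Figure D4:**
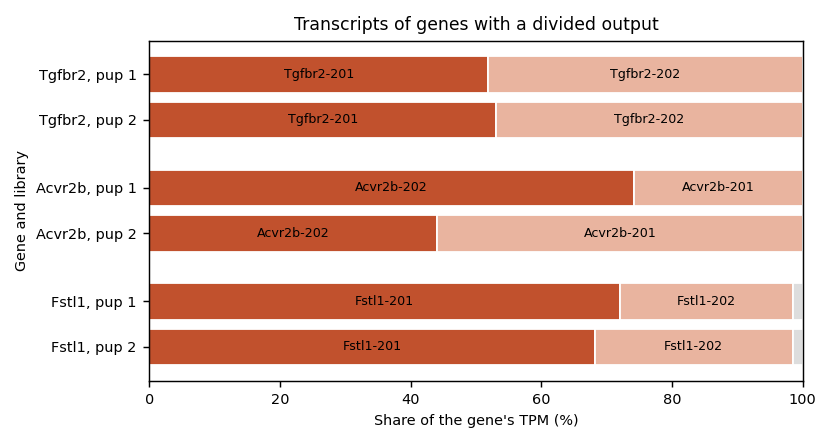
Share of each gene's TPM, in percent, held by its leading transcripts in each pup for Tgfbr2 (dark: shorter form), Acvr2b (dark: longer form) and Fstl1 (dark: coding transcript); grey is the remainder. Tgfbr2 is divided nearly equally in both pups, Acvr2b has another leading transcript in each pup, and a non-coding Fstl1 transcript holds 26.5% and 30.3%.

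The other type II receptors, Tgfbr1 and Tgfbr3 stood between 4.73 and 8.49 TPM. Tgfbr1, the type I partner of Tgfbr2, was at 7.66 and 7.92 TPM, and Tgfbr2 exceeded it by 2.25-fold (log2 1.17 ± 0.046). Acvr2a, the other activin type II receptor, was at 8.46 and 8.49 TPM, 2.14-fold above Acvr2b (log2 1.10 ± 0.037). Bmpr2, the BMP type II receptor, was at 4.73 and 5.15 TPM, 3.52-fold below Tgfbr2 (log2 -1.82 ± 0.098). Tgfbr3, betaglycan, which presents Tgfb2 to its receptors, was at 5.99 and 5.63 TPM, 4.53-fold below Eng (log2 -2.18 ± 0.12).

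Type I receptors for BMPs differed most among themselves. Bmpr1b, known from cartilage and ovary, was at 0.260 and 0.190 TPM, and Bmpr1a exceeded it by 47.5-fold (log2 5.57 ± 0.20). Acvr1, which serves BMPs such as Bmp7, was at 3.72 and 4.00 TPM, 2.86-fold below Acvrl1 (log2 -1.52 ± 0.017). The activin and nodal type I receptors Acvr1b and Acvr1c were at 4.79 and 5.47 TPM and at 4.04 and 3.95 TPM. Over the class, the 7 type I receptors summed to 46.8 and 48.1 TPM and the 4 type II receptors to 34.9 and 35.0 TPM, and the type II sum was 1.36-fold lower (log2 -0.44 ± 0.025). The mean over members of log2(TPM + 0.1) reversed that order, at 0.73.

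Antagonists were led by Fstl1 (ENSMUSG00000022816.7, chromosome 16, 37776873 to 37836514), a follistatin-like glycoprotein secreted by mesenchyme, which was the highest member at 104 TPM in pup 1 and 116 TPM in pup 2. It exceeded 94.3% and 94.9% of protein-coding genes. A short transcript without a coding sequence held 26.5% and 30.3% of that level, and the coding transcript stood at 75.2 and 79.4 TPM. Fst, follistatin, which binds activins, was at 7.46 and 7.02 TPM, 15.0-fold below Fstl1 (log2 of Fstl1 over Fst 3.91 ± 0.17).

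Apart from Fstl1 and Fst, the antagonists stood between 1.49 and 12.7 TPM. Grem1, gremlin, a BMP antagonist of muscle-layer and subcryptal stroma, was at 8.84 TPM in pup 1 and 12.7 TPM in pup 2. Nog, noggin, was at 2.32 and 2.48 TPM, and Grem1 exceeded it by 4.28-fold (log2 2.10 ± 0.30). Chrdl1 was at 3.48 and 4.10 TPM and Chrd, chordin, at 1.69 and 1.49 TPM, a difference of 2.30-fold (log2 1.20 ± 0.28). Bmper, which can hinder or help BMP binding, was at 3.22 and 3.35 TPM. The 7 antagonists summed to 131 and 147 TPM, 2.07-fold above the BMP ligands (log2 1.05 ± 0.0074). That order rests on Fstl1: without the highest member of either class the value was -0.31.

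Smads were present in each functional type. Smad1 (ENSMUSG00000031681.10), of the BMP branch, stood at 21.9 and 21.2 TPM, Smad2, of the TGF-beta and activin branch, at 17.3 and 18.3 TPM, and the common Smad4 at 17.9 and 16.4 TPM. Smad5 was at 6.77 and 9.45 TPM, 2.68-fold below Smad1 (log2 of Smad1 over Smad5 1.42 ± 0.37), and Smad9 at 0.560 and 0.740 TPM. Smad2 exceeded Smad3 (4.00 and 4.58 TPM) by 4.08-fold (log2 2.03 ± 0.080). Each receptor-regulated branch thus had a leading member that stood well above the others of its branch.

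The 3 BMP-type Smads summed to 29.3 and 31.4 TPM and the 2 TGF-beta-type Smads to 21.3 and 22.9 TPM, a ratio of 1.37-fold (log2 0.46 ± 0.00097). With the mean over members of log2(TPM + 0.1), in which the low Smad9 counts like Smad1, that value was -0.80. The inhibitory Smads are induced by the pathway and block it. Smad6, the inhibitor of the BMP branch, was at 4.90 and 4.32 TPM, and Smad7, the broader inhibitor, at 4.18 and 4.90 TPM. Their difference was within the SD (log2 of Smad7 over Smad6 -0.023 ± 0.28), with Smad6 higher in pup 1 and Smad7 higher in pup 2. Both stood above Smad9 in each pup and near Smad3. The sum of these 2 genes was 5.73-fold below the sum of the 5 receptor-regulated Smads (log2 -2.52 ± 0.057), and the mean over members of log2(TPM + 0.1) gave -0.44.

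The targets were among the most abundant members. Id3 (ENSMUSG00000007872.3, chromosome 4, 136143497 to 136145755) stood at 85.4 and 94.5 TPM and Id1 (ENSMUSG00000042745.9, chromosome 2, 152736251 to 152737410) at 61.1 and 74.2 TPM. Both encode helix-loop-helix proteins without a DNA-binding region that hold back differentiation factors, and both are classic direct targets of BMP Smads. Id3 exceeded 92.9% and 93.5% of protein-coding genes and Id1 90.5% and 91.8%. Id1 was 1.33-fold below Id3 (log2 -0.42 ± 0.094). Of the 19 gene pairs compared, 18 differed by more than the SD over pups, the exception being Smad7 and Smad6. With 2 pups this bar is low, since it asks for little more than the same order in both pups.

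The folds of these pairs belong to the per-length scale. Without length normalisation 13 of the 19 log2 values moved by over 1.5-fold. A ratio of raw counts between genes also holds the ratio of their lengths. These moves thus follow from the lengths of the genes and do not test the order of their levels. Differences became smaller for Bmpr2 over Tgfbr2 (-0.40), Smad1 over Smad5 (0.44), Bmp5 over Bmp4 (-0.74), Smad2 over Smad3 (1.15), Tgfbr3 over Eng (-1.30) and Inhba over Inhbb (2.06). They became larger for Acvr2a over Acvr2b (2.91), Grem1 over Nog (3.49), Bmp7 over Bmp4 (1.83), Tgfb1 over Tgfb2 (-2.86), Tgfb1 over Tgfb3 (-3.13) and Bmpr1a over Bmpr1b (6.32), and Bmp2 over Bmp4 changed sign, as given above. With a pseudocount of 1 TPM, the low Bmpr1b and Inhbb gave 3.73 for Bmpr1a over Bmpr1b and 1.60 for Inhba over Inhbb.

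Between pups the members differed little. Ratios of pup 2 over pup 1 were taken on counts scaled to library size, with an exact 95% interval that covers counting error only and compares 2 libraries. None of the 42 members with a summed count of 10 or more lay wholly beyond 2-fold, against 0.796% of 19088 genes tested. Among the 13840 tested genes with at least 1 TPM in each pup, 16 were called higher in pup 2 and 11 in pup 1. At such shares a call among 42 genes is unlikely, so the lack of calls does not set the members apart. By interval, 7 members were above 1 (16.7%, against 13% of the genes tested) and 6 below 1 (14.3%, against 16.6%). Among the 13840 tested genes with at least 1 TPM in each pup those shares were 14.8% and 20.6%, so the members' shares were near the background. The median log2 ratio was 0.046 over the members and -0.0061 over all genes tested, and the median size of that ratio was 0.121 and 0.134. That median size was lower in both other backgrounds, at 0.1157 over protein-coding genes tested and 0.1004 over the 13840 genes. The members thus differed less than all genes tested but not less than these 2 sets, so their small ratios do not set them apart.

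After Inhbb, which had 24 and 39 counts, Grem1 had the largest ratio, 1.37-fold higher in pup 2 (95% interval 1.27 to 1.48), with 1287 and 1417 expected counts. The 250 bases before its RefSeq start, on the minus strand at chr2:113758649-113758898 of GRCm38.p6, are shown because this antagonist varied most among the well-covered members. Capitals mark GGCGCC, a GC-rich element bound by BMP Smads, and CAGAC, the core of the Smad-binding element, searched on both strands; the matches do not overlap.
Grem1 promoter: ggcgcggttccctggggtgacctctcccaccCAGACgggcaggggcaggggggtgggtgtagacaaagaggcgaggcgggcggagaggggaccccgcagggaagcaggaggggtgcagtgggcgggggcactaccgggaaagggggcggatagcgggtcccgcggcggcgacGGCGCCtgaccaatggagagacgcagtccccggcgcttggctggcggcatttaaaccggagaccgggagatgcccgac
Among all 32851 promoter windows of this length, 9.59% hold GGCGCC and 42.2% hold CAGAC. Among the 19931 windows of protein-coding genes those shares are 12.7% and 40.8%. Either match is thus a description of the sequence and no evidence of binding. Windows were available for 31 of the 44 members, and no conclusion on base composition is drawn from them.

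The other members above 1 were the ligands Inhbb (2.03-fold, 1.19 to 3.52, on 24 and 39 counts), Bmp2 (1.21-fold, 1.11 to 1.31), Bmp5 (1.19-fold, 1.06 to 1.34) and Bmp7 (1.10-fold, 1.04 to 1.15), with Smad5 (1.20-fold, 1.12 to 1.29) and Id1 (1.16-fold, 1.08 to 1.24). Those below 1 were Smad6 (0.843, 0.733 to 0.969), Tgfbr3 (0.886, 0.812 to 0.967), Smad4 (0.887, 0.829 to 0.948), Smad1 (0.927, 0.871 to 0.987), Bmpr1a (0.935, 0.887 to 0.987) and Tgfbr2 (0.943, 0.893 to 0.997). Scaling by the total count in place of the TMM method gave 11 members above 1 and 3 below, with Smad1, Bmpr1a and Tgfbr2 no longer below and Acvr1b, Fstl1, Smad7 and Id3 newly above. Summed stomach markers were 4.90-fold higher in pup 2, with 3 of 5 genes at 1 TPM in each pup. Summed exocrine pancreas markers were 1.63-fold higher in pup 2 (101 and 164 TPM), with 4 of 5 genes at 1 TPM in each pup. Summed hindgut markers were 7.33-fold higher in pup 1, with 1 of 11 genes at 1 TPM in each pup and Hoxb13 at 0 in both. The part of these tissues in the members' ratios was not tested.

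Smad5 differed more in TPM than in counts. Its levels were 6.77 and 9.45 TPM while its count ratio was 1.20. A retained-intron transcript, described after its values were seen, held 3.68% of the level in pup 1 and 14.4% in pup 2. On coding transcripts alone the level was 6.52 and 7.99 TPM.

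**Figure D5:**
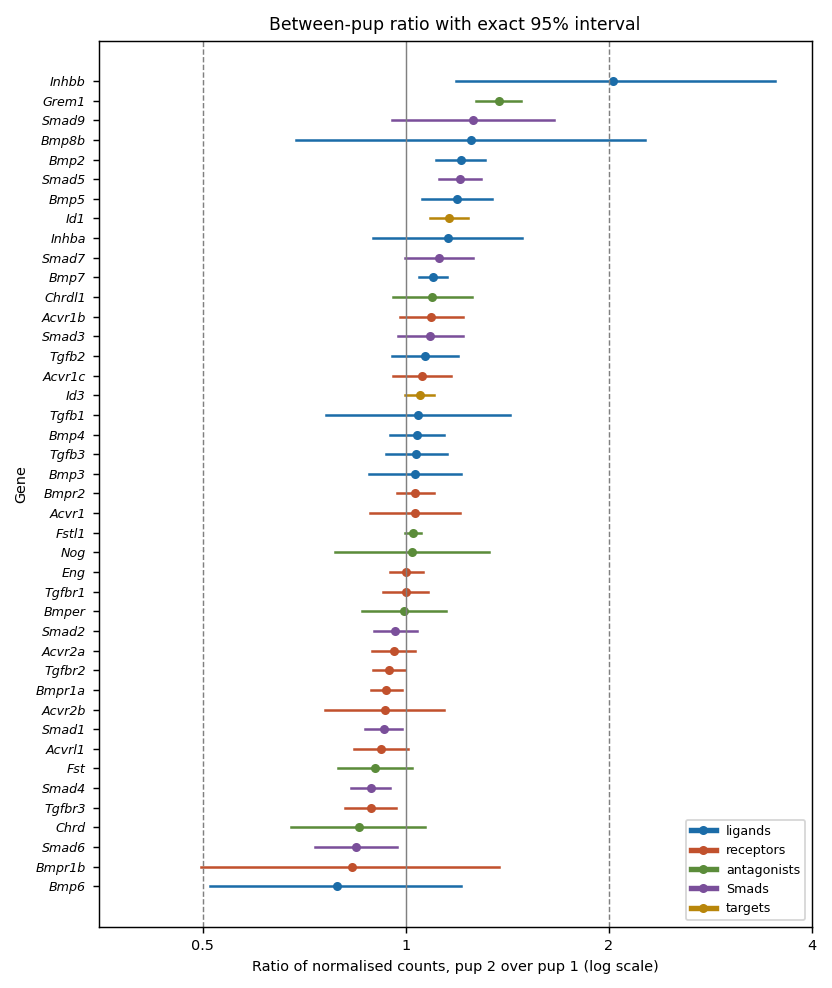
Ratio of library-scaled counts, pup 2 over pup 1 (log axis), for the 42 members with a summed count of 10 or more, as points with exact 95% intervals; the solid line marks 1 and dashed lines 0.5 and 2. No interval lies wholly beyond a dashed line, and the widest belong to members with few reads such as Inhbb, Bmp8b and Bmpr1b.

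Around the members, the rest of the pathway was read from 6 lists of 88 further genes, of which 87 were measured. At 1 TPM or more in each pup stood 59 of them (67.8%), against 59.1% of protein-coding genes. Of the further ligands, 5 of 17 measured (29.4%) passed 1 TPM: Gdf10 (7.41 and 7.45 TPM), Bmp8a (5.87 and 6.57 TPM) and Gdf9 (4.48 and 4.40 TPM) led them. Gdf5, a joint-forming ligand, was the only 1 of the 87 genes wholly beyond 2-fold between pups (0.796% of all genes tested), with 65 and 13 counts and 0.810 and 0.210 TPM; its ratio of pup 2 over pup 1 was 0.249 (0.126 to 0.457).

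Of the genes that release or store ligands, 14 of 18 (77.8%, against the same 59.1%) passed 1 TPM. Itgav, an integrin chain that activates latent TGF-beta, was at 69.4 and 76.1 TPM, Ltbp4, which anchors the latent complex to matrix, at 31.6 and 34.2 TPM, and Furin, which cleaves the precursors, at 21.2 and 20.5 TPM. Itgav had fewer expected counts (2598 and 2130) than Ltbp4 (4987 and 4121) or Furin (3149 and 2306). Its first place in TPM thus rests on a shorter effective length, and its transcripts were not examined. Further antagonists and modulators passed 1 TPM for 15 of 19 genes (78.9%), led by the proteoglycan Dcn (264 and 265 TPM), the stem cell matrix protein Smoc2 (48.5 and 49.7 TPM) and the BMP antagonist Nbl1 (32.1 and 30.2 TPM). A list of 5 genes held further co-receptors and Amhr2, the type II receptor of anti-Mullerian hormone. The BMP co-receptors Rgmb (17.9 and 20.0 TPM) and Rgma (3.37 and 4.16 TPM) passed 1 TPM, and Amhr2 was at 0.420 and 0.290 TPM.

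Of the intracellular regulators, 13 of 14 (92.9%, against 59.1%) passed 1 TPM, with Ppm1a, a Smad phosphatase, at 29.6 and 29.2 TPM, and the co-repressors Tgif1 (19.7 and 16.1 TPM) and Skil (15.3 and 17.8 TPM). Foxh1, a nodal partner factor of the early embryo, had no read in either pup. Further response genes passed 1 TPM for 10 of 14 (71.4%). Col1a1, a collagen that TGF-beta induces, was at 271 and 295 TPM, Id2 at 246 and 271 TPM, and Tgfbi at 81.3 and 84.3 TPM. Id2 thus stood above Id1 and Id3, whereas Msx2, a BMP target of limb and tooth, had no read.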

How the data were processed

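Total RNA was read in the intestine of 2 littermates, 1 library each, numbered as the labels number the pups. The authors deposited, per library, gene and transcript tables with expected counts (estimated reads, shared reads divided), TPM scaled to effective length over all features, and, in percent, the share of a gene held by each transcript, per the file headers. The assembly was mm10 with GENCODE M4, as the deposited text file states; the sources used here name no aligner or quantifier.

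GENCODE M21 (GRCm38) gave symbols, biotypes and positions, matched by identifier for 42462 of 43346 genes (98.0%). The members and lists were chosen with earlier results of these data known. Detection meant at least 1 TPM in each pup. Gene pairs are log2 ratios of TPM + 0.1 and class contrasts log2 ratios of summed TPM, per pup. Between-pup ratios used rounded expected counts and TMM library sizes of edgeR 4.0.16 (R 4.3.3), with exact (Clopper-Pearson) 95% intervals from SciPy 1.17.1, on all genes. Alternatives included size factors of DESeq2 1.42.0. Tested on simulated data over 24579 genes, the rule for over 2-fold called 1 of 50 genes changed 1.5-fold. It called 45 of 50 at 3-fold, 49 of 50 at 6-fold and 50 of 50 at 12-fold, with 0 false calls. These calls hold for the spread and read counts set in the simulation. They do not give the error rate of the rule in these pups or for members with few reads.

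Per-pup values are given for the 4 highest members of each class, the targets, members under 0.1 TPM in both pups, members of the 19 gene pairs and, added after values were seen, most others. Isoforms were described for members at 5 TPM or more with at least 2 transcripts at 20% or more in both pups, which Tgfbr2 and Fstl1 met. Of the other pathway genes, the 3 highest of each list and those over 2-fold apart are named. Tables were handled with Python 3.11.15 and pandas 2.3.3.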

Additional observations from a re-analysis of the deposited data

How the results depend on the processing

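No paired analysis was possible because both libraries form 1 group. The counts of detected members, over all 44 and by class, stayed within 1.5 times under thresholds of 0.5 and 2 TPM, posterior mean TPM, rescaling over nuclear genes, coding transcripts alone (an alternative added after seeing the data, here and below) and without either pup. A threshold of 0.5 TPM, rescaling over nuclear genes and leaving out a pup can only keep or raise a count. With 37 of 44 members already detected there was little room to rise, so these settings are no sign of stability. At 2 TPM, where a count can only stay or fall, 35 members passed. The count of members over 2-fold apart was 0 under DESeq2 size factors, total counts, posterior mean counts, no minimum count, a minimum of 50 and a limit of 1.5-fold; over all genes the count was 152, against 81 with posterior mean counts, 64 with the minimum of 50 and 283 at 1.5-fold.

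Class contrasts (log2) were less steady. The mean of log2(TPM + 0.1) over members gave -0.56 for BMP over TGF-beta ligands, 2.32 for BMP over activin and nodal ligands, 0.73 for type II over type I receptors, -0.80 for BMP-type over TGF-beta-type Smads, -0.44 for inhibitory over receptor-regulated Smads and 1.28 for antagonists over BMP ligands; this measure weights low members like high ones. Without the highest member of each class the values were, in the same order, 2.31, 6.89, -0.90, 1.01, -2.76 and -0.31. Expected counts without length normalisation, which also hold the gene lengths, gave 2.13, 5.26, -0.16 and 0.82 for the first 4. For antagonists over BMP ligands they gave 1.02. Posterior mean TPM gave 2.17 for BMP over TGF-beta ligands, -0.50 for receptors, 0.38 for BMP-type over TGF-beta-type Smads and -2.45 for inhibitory Smads. Members at 1 TPM or more gave 4.57 for BMP over activin and nodal ligands, 0.43 for BMP-type over TGF-beta-type Smads and 1.07 for antagonists over BMP ligands. Coding transcripts alone gave 2.34 for BMP over TGF-beta ligands, 0.43 for BMP-type over TGF-beta-type Smads and 0.77 for antagonists over BMP ligands.

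Of 114 values of gene pairs under alternatives, 68 stayed within the spread between pups. Another 43 moved beyond it, toward or away from 0, but kept their sign, and 3 changed sign. Those 3 were Bmp2 over Bmp4 without length normalisation (0.31), Smad7 over Smad6 without it (0.52), and Smad7 over Smad6 by single pups (-0.22 without pup 2 and 0.18 without pup 1). Of the 68, 18 came from leaving out pup 1 and 19 from leaving out pup 2. With 2 pups a single value always lies within the SD of their mean. Those single-pup values thus could only count as steady or change sign, and they are no sign of stability. Of 43 leading-transcript shares, 17 moved by more than the spread with posterior mean shares. Scaling by total counts moved 7 members' intervals across 1, and DESeq2 size factors moved none. Depth limits Inhbb, Nodal, Bmp8b and Bmpr1b, which had 70 reads or fewer in all.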
